A study of Homo sapiens with 10 samples.

Results

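The 33 genes described here belong to the unfolded protein response of the endoplasmic reticulum (ER), and were picked by name from a table that lists 78894 gene IDs. All 33 were found by symbol, and all 33 passed the filter on low values (10 normalized counts or above in 3 or more libraries), which kept 29045 genes. By role they comprise 11 chaperones and co-chaperones, 6 disulfide enzymes, 8 genes of ER-associated degradation (ERAD), 5 sensors and transcription factors, and 3 genes of translocation, export and the ER membrane. Poly(A)-selected RNA was sequenced from HEK293T cells, a human embryonic kidney line that carries the SV40 large T antigen, after 24 h in medium without cysteine (0X, 2 libraries), in complete medium (1X, 4 libraries) or in medium with 10 times the cysteine of complete medium (10X, 4 libraries, called excess medium here). The labels give no genetic change for any group. The labels name the libraries of a group as biological replicates of this single line. The study's methods describe more than a single way of changing cysteine. In the protocol that has a 10-fold medium, all media share a base without cysteine and methionine and the same supplements and differ in the cysteine added. In the starvation protocol to which the RNA-seq methods refer back, cells in standard complete medium were set against a cystine-free medium with dialyzed serum. Which of them gave these libraries is not stated in the sources used here, and a part of the medium's other components in the differences was not tested. The number of replicates that the study states for the cysteine-free comparison is not the number of libraries labelled so here.

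The ER is the compartment in which secreted and membrane proteins fold, are glycosylated and form disulfide bonds between pairs of cysteines. When unfolded proteins collect there, 3 sensors in the ER membrane signal to the nucleus: IRE1 (gene *ERN1*) splices the mRNA of *XBP1* into a form that encodes an active transcription factor, ATF6 is cut in the Golgi to release its transcription factor domain, and PERK (gene *EIF2AK3*) phosphorylates the translation factor eIF2α, which favours translation of ATF4. Chaperones and ERAD genes are classical targets of ATF6 and spliced XBP1. ATF4 can also be reached without the ER, because other kinases such as GCN2, a sensor of amino acid shortage, phosphorylate the same factor.

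The recovered reads per library ranged from 34836014 to 61654861, and chi-square values divided by their degrees of freedom lay between 3.53 and 14.7 for pairs of replicates, so no pair of libraries agreed within sampling noise. Mitochondrial genes held 5.43% ± 0.397 (SD, n = 2) of the reads in cysteine-free medium, 4.71% ± 0.25 (n = 4) in complete medium and 0.129% ± 0.0129 (n = 4) in excess medium. The 8 genes chosen as expressed in HEK293T cells all passed the filter on low values. Of the 6 markers of cell types that should be absent, 2 (*CD3E* and *HBB*) had no read, and the highest value of any was 54.8. In bulk RNA, a change in the number of cells and a change in the RNA of each cell cannot be told apart.

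Promoter sequence is shown for members whose values went in different directions, because the classical ER stress response elements lie close to the start of transcription. The sequences are RefSeq promoters of build GRCh38.p14, each running from 250 bases before to 50 bases after the start, and 29 of the 33 members had an entry. Capitals mark the 2 fixed parts of an ER stress response element: CCAAT, any 9 bases and CCACG for ERSE, or ATTGG, any base and CCACG for ERSE-II, each searched on both strands, so that a match on the other strand reads CGTGG followed by ATTGG or CCAAT. Positions are counted with the transcription start as 0, and are those of the first matched base on the printed strand. *HSPA5* (ENSG00000044574; chr9:125241294-125241593, minus strand; ERSE at position -66), *HSP90B1* (ENSG00000166598; chr12:103930160-103930459, plus strand; ERSE at positions -194 and -89), *SDF2L1* (ENSG00000128228; chr22:21642052-21642351, plus strand; ERSE-II at -188), *HERPUD1* (ENSG00000051108; chr16:56931892-56932191, plus strand; ERSE-II at -117), *XBP1* (ENSG00000100219; chr22:28800520-28800819, minus strand; ERSE at -52) and *DNAJB9* (ENSG00000128590; chr7:108569624-108569923, plus strand; no match) are given 5′ to 3′.
HSPA5: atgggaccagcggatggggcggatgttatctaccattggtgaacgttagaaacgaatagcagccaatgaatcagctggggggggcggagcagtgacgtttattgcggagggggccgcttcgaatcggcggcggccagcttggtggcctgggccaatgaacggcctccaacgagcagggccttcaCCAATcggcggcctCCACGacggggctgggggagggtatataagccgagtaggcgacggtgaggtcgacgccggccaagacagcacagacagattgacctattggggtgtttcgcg
HSP90B1: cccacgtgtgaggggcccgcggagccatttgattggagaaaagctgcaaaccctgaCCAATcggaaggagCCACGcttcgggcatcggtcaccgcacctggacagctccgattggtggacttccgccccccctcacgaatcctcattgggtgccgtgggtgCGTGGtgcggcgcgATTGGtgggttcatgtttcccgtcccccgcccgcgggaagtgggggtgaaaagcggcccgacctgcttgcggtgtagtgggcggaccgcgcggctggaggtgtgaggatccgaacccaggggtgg
SDF2L1: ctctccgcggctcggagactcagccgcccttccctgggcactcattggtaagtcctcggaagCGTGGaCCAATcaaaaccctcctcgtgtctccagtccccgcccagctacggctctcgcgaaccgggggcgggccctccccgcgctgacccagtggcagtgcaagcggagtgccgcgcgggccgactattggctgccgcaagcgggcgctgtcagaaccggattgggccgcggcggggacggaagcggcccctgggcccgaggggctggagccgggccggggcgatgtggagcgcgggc
HERPUD1: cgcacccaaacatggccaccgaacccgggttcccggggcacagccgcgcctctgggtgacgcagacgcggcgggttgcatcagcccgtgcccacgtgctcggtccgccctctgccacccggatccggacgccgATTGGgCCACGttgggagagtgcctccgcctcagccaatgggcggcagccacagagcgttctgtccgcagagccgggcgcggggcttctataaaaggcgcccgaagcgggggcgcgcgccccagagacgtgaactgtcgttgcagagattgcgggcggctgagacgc
XBP1: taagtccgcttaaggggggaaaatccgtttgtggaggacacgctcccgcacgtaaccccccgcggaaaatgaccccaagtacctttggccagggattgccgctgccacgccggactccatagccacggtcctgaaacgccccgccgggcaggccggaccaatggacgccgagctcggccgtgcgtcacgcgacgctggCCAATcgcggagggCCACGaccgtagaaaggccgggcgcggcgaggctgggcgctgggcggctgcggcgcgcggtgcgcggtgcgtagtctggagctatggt
DNAJB9: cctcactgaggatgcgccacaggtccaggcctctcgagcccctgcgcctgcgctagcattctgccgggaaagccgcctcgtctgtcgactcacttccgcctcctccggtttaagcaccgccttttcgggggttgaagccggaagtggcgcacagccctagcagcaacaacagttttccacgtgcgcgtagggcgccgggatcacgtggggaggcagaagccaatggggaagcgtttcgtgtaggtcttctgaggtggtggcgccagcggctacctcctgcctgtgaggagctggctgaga

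A gene can have several promoter entries, and the 29 members had 36. Of all 35116 RefSeq promoters of this length, 46 (0.131%) held an ERSE or ERSE-II, and 13 of these belonged to members, from 11 genes. ERSE alone was in 27 promoters (0.0769%), 10 of them from 8 members, since *CANX* had 3 such entries. ERSE-II was in 19 (0.0541%), 3 of them from 3 members. The UPRE letters TGACGTGG were in 0.729% of all promoters and in 1 member (*HYOU1*). TGATGNAA, the core of the C/EBP-ATF element that ATF4 complexes bind, was in 3.62% of all promoters and in 2 members (*HERPUD1* and *CREB3L2*); it was in 9 of the 43 promoters of 28 PERK and ATF4 branch genes described further on, and an ERSE, ERSE-II or UPRE in 0 of these 43. These are matches of letters and were not tested as binding sites. The elements are the classical ones of these same responses, so their share among the listed genes is no independent result.

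**Figure D1:**
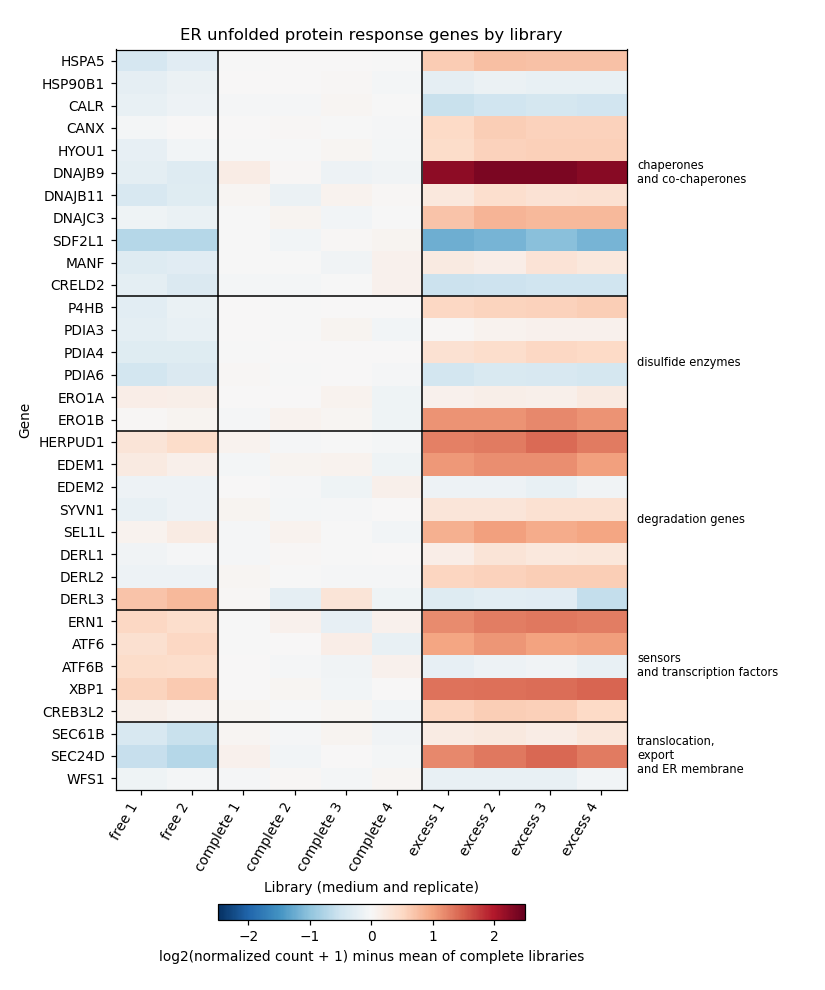
Each row is one of the 33 genes, grouped by role, and each column a library; colour is log2(normalized count + 1) minus the mean of the 4 complete libraries. The 2 cysteine-free libraries are bluish for most chaperones and reddish for *XBP1*, *ATF6*, *ATF6B* and *ERN1*, whereas the 4 excess libraries are red for most genes, with *SDF2L1*, *CALR*, *CRELD2* and *PDIA6* in blue.

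Levels per length set the scale of the values that follow. In complete medium the mean normalized count per kilobase of canonical transcript was highest for *CALR* at 15024, followed by *HSP90B1* at 11364, *P4HB* at 9079, *CANX* at 8841 and *HSPA5* at 7357. It was lowest for *DNAJB9* at 217, *DERL3* at 186 and *ERN1* at 114.5. The abundant luminal chaperones therefore stood far above the sensor IRE1 and the co-chaperone ERdj4 per unit of length.

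Without cysteine, fewer members were called higher than lower. The question was whether the chaperones, disulfide enzymes and degradation genes moved when cysteine was removed. Of the 33 genes, 6 rose and 12 fell at the threshold of 0.01 for the adjusted p (limma on log2(normalized count + 1), Benjamini-Hochberg over 29045 genes), against 7.39% of all tested genes called higher and 8.51% called lower. Among the 11751 genes with a mean of at least 500, a range that holds all 33, these shares were 11.5% and 17.1%. The median log2 fold change of the members was -0.14, against 0.0024 over all tested genes, and 11 of 33 lay above 0.

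The chaperone group had 0 of 11 genes called higher and 6 called lower by limma, and its median log2 fold change was -0.28. At an unadjusted p under 0.05, and with edgeR or DESeq2 on the recovered reads, 0 were higher as well. With 7.39% of all tested genes called higher (11.5% at a mean of at least 500), 0 of 11 is near the background share. The shares called lower were 8.51% and 17.1%. *HSPA5* encodes BiP, the main luminal Hsp70, which also binds the sensors in unstressed cells. Its normalized counts were 21664 and 23598 without cysteine, against 28725, 29033, 29007 and 28629 in complete medium. Both cysteine-free libraries were below all 4 complete libraries, and the log2 fold change was -0.35 (SE 0.046, limma adjusted p = 1.16e-04). *SDF2L1*, which works with ERdj3 and BiP to keep proteins soluble, had the lowest log2 fold change of the 33 members. Its counts of 884 and 887 lay under the 1441, 1386, 1481 and 1520 of complete medium (log2 fold change -0.72, SE 0.071, limma adjusted p = 1.24e-05).

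The 4 other chaperones that fell moved less. *DNAJB11*, which encodes ERdj3, fell by 0.35 on the log2 scale. *MANF*, a small ER and secreted protein, and *CRELD2*, a cysteine-rich ER protein, had log2 fold changes of -0.31 and -0.30. *HSP90B1*, the ER Hsp90 (GRP94), had 27090 and 28446 normalized counts without cysteine and 31695, 31748, 32446 and 30574 in complete medium (log2 fold change -0.19, SE 0.045, limma adjusted p = 0.00708). Of the remaining 5, *CALR* and *CANX*, the lectin chaperones calreticulin and calnexin, had log2 fold changes of -0.16 (limma adjusted p = 0.0162) and -0.02 (0.777). *HYOU1*, the nucleotide exchange factor GRP170, had -0.14, *DNAJC3*, the co-chaperone p58IPK, had -0.14 and *DNAJB9*, the co-chaperone ERdj4, had -0.28 (limma adjusted p = 0.0679), and none of these passed the test.

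The disulfide enzymes divided into the isomerases and the oxidases. All 4 protein disulfide isomerases fell, and neither ERO1 oxidase passed the test. The share called lower over all tested genes was 8.51% (17.1% at a mean of at least 500). *PDIA6* had counts of 9175 and 9710 without cysteine against 12798, 12472, 12564 and 12304 in complete medium (log2 fold change -0.41, SE 0.048, limma adjusted p = 4.57e-05). *PDIA4* (ERp72) had a log2 fold change of -0.30, *P4HB* (the founding member, PDI) of -0.22 and *PDIA3* (ERp57, the partner of the lectin chaperones) of -0.21. *ERO1A*, an oxidase that passes electrons from the isomerases to oxygen, had 4050 and 4018 counts against 3643, 3617, 3839 and 3367; the groups did not overlap, and the log2 fold change of 0.16 had an adjusted p of 0.0697 in limma. Its paralogue *ERO1B* had 0.05 (limma adjusted p = 0.673).

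Among the 8 degradation genes, 2 rose and 0 fell in limma, and the median was 0.04. With edgeR and DESeq2, 0 were lower as well, and 1 (*SYVN1*) was lower at an unadjusted p under 0.05. The shares over all tested genes were 7.39% higher and 8.51% lower (11.5% and 17.1% at a mean of at least 500). Thus 0 of 8 lower is near the background share. *HERPUD1*, a membrane scaffold of the HRD1 ubiquitin ligase, had normalized counts of 3519 and 3874 without cysteine against 2978, 2765, 2782 and 2722 in complete medium. The cysteine-free libraries were the higher ones, by 0.39 on the log2 scale (SE 0.064, limma adjusted p = 5.29e-04). *DERL3*, a derlin of the retrotranslocation channel, had 934 and 1004 counts against 580, 484, 713 and 525, a log2 fold change of 0.77 (SE 0.128, limma adjusted p = 6.76e-04). The value of *DERL3* is uncertain, because 77% of its exon length is shared with *SMARCB1* on the other strand, whose mean of 7989 normalized counts exceeded the 601 of *DERL3*, and the strand setting of the counting is not given in the sources used here. Reads over several genes are said in the methods to have been discarded. The long non-coding RNA that shares 49.3% of the exon length of *ASNS*, on its strand, had nearly the same mean as *ASNS*. These means were 15750 and 15860 normalized counts. Whether the deposited values hold shared reads was not tested. *EDEM1*, *EDEM2*, *SYVN1*, *SEL1L*, *DERL1* and *DERL2*, which encode mannose-trimming factors, the HRD1 ligase, its adaptor and further derlins, had log2 fold changes between -0.15 (*SYVN1*) and 0.17 (*EDEM1*) and did not pass the test.

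The sensors and transcription factors went the other way from the chaperones. Of 5 genes, 4 rose and 0 fell (limma, edgeR and DESeq2, and at an unadjusted p under 0.05 too). The median log2 fold change was 0.46. Background shares were 7.39% higher and 8.51% lower (11.5% and 17.1% at a mean of at least 500), so 0 of 5 lower is near them. *XBP1* had 10334 and 10994 normalized counts without cysteine against 7036, 7244, 6718 and 7078 in complete medium, so that both libraries stood above all 4, at a log2 fold change of 0.60 (SE 0.052, limma adjusted p = 4.28e-06). *ATF6*, its relative *ATF6B* and *ERN1* had log2 fold changes of 0.46, 0.45 and 0.48. *CREB3L2*, a membrane-bound factor of secretory cells related to ATF6, had 0.12 (limma adjusted p = 0.142). Gene totals do not separate spliced from unspliced *XBP1* mRNA, and neither cleavage of ATF6 nor activity of IRE1 was measured.

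The last 3 members were a translocon subunit, a coat protein and an ER membrane protein. *SEC61B*, of the channel through which proteins enter the ER, had 1735 and 1563 counts against 2379, 2241, 2407 and 2165, a log2 fold change of -0.48 (SE 0.071, limma adjusted p = 2.78e-04). *SEC24D*, a cargo adaptor of the COPII coat that carries proteins out of the ER, had 1359 and 1235 counts against 2177, 1936, 2020 and 1950. It was lower in both cysteine-free libraries, at a log2 fold change of -0.64 (SE 0.073, limma adjusted p = 3.87e-05). *WFS1*, which encodes the ER membrane protein wolframin, had -0.08 (limma adjusted p = 0.401).

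With 2 cysteine-free libraries, the counts of called genes depended on each of them. Of the 18 calls, *SDF2L1*, *PDIA6* and *XBP1* were called in every alternative run, and 15 were lost in at least one. Without cysteine-free replicate 1 there were 2 called higher and 4 called lower, without replicate 2 there were 1 and 4, and without complete replicate 1 or 2 there were 7 called lower.

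**Figure D2:**
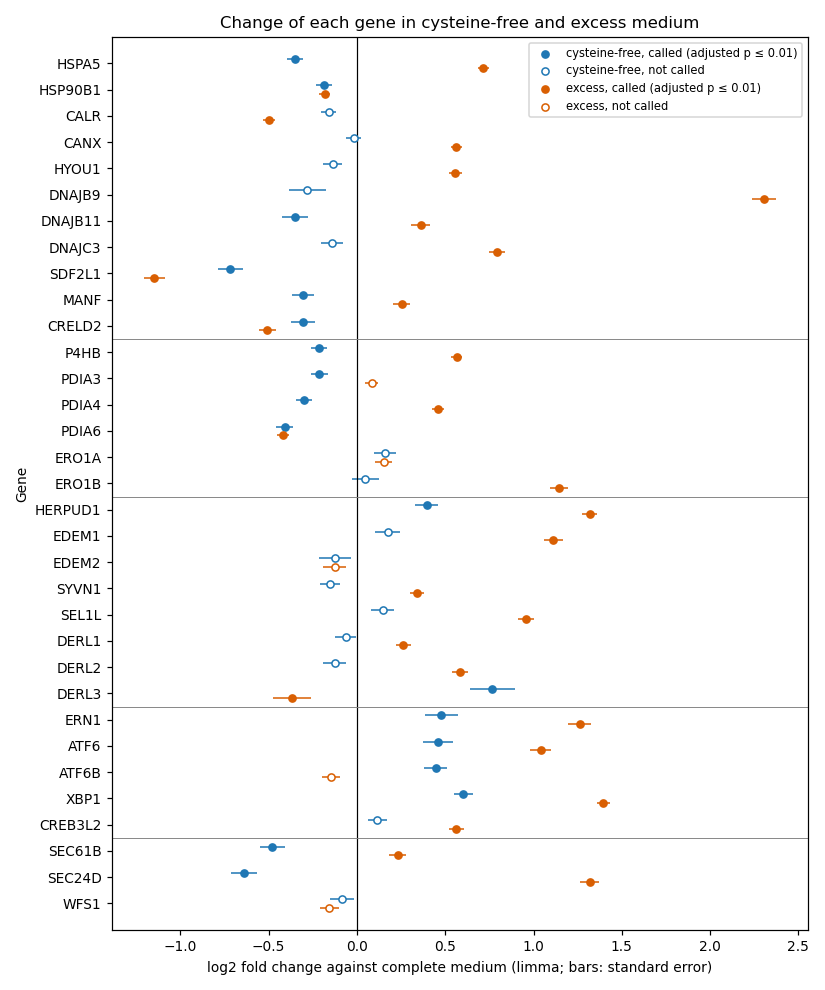
For each gene, the log2 fold change against complete medium is shown in cysteine-free (blue) and excess medium (orange), with the standard error as a bar; filled points passed the threshold (adjusted p up to 0.01). Both comparisons share the 4 complete libraries. *DNAJB9* lies farthest right at 2.31 in excess medium and *SDF2L1* farthest left at -1.15.

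With excess cysteine most of the 33 genes were higher. At the same threshold, 22 rose and 6 fell in excess against complete medium, while over all tested genes 23.1% were called higher and 22.9% lower (30.1% and 37.6% of genes with a mean of at least 500). The members' median log2 fold change was 0.46 against 0.0143 over all genes. The mitochondrial share of reads was lower in the same libraries (0.129% against 4.71%); with libraries scaled to equal totals over nuclear genes the members counted 24 higher and 5 lower. With equal totals over all genes the median of all genes moved from 0.0143 to 0.118 and the share of higher calls among all genes from 50.3% to 61.8%, with 24 members called higher and 4 lower.

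Among the chaperones, 7 of 11 rose and 4 fell, with a median of 0.36. Of genes with a mean of at least 500, 30.1% were called higher and 37.6% lower, so 4 of 11 lower is near the background share. *DNAJB9*, whose product brings BiP to the IRE1 sensor and to misfolded clients, rose from 589, 531, 479 and 487 normalized counts in complete medium to 2439, 2662, 2670 and 2535. All 4 excess libraries lay above all complete ones, and the ratio of means was 4.94 (log2 fold change 2.31, SE 0.067, limma adjusted p = 4.92e-14). *HSPA5* reached 45079, 48639, 47898 and 47838 counts, 1.64 times the mean in complete medium (log2 fold change 0.71, SE 0.032, limma adjusted p = 9.89e-12). *DNAJC3* rose by 0.79 on the log2 scale, *CANX* by 0.56, *HYOU1* by 0.56, *DNAJB11* by 0.36 and *MANF* by 0.25.

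*SDF2L1* was the member with the lowest fold change here too, with 623, 651, 708 and 648 normalized counts in excess medium against 1441, 1386, 1481 and 1520 in complete medium. Its mean was 0.451 times that of complete medium (log2 fold change -1.15, SE 0.059, limma adjusted p = 5.80e-11). *CALR* had 19364, 20198, 20932 and 20380 counts against 28149, 28036, 29522 and 28533, with all excess libraries lower and a log2 fold change of -0.50 (SE 0.034, limma adjusted p = 1.86e-09). *CANX*, the membrane-bound relative of calreticulin, thus stood above complete medium while *CALR* stood below it. *CRELD2* had a log2 fold change of -0.51. *HSP90B1* had -0.18 (limma adjusted p = 9.89e-05), a call that was lost with equal totals and that turned to 0.02 with quantile normalization.

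Of the 6 disulfide enzymes, 3 rose, 1 fell and 2 did not pass the test. The shares over all tested genes were 23.1% higher and 22.9% lower (30.1% and 37.6% at a mean of at least 500). Thus 1 of 6 lower is not above the background share. *ERO1B* had 2977, 2950, 3127 and 2966 counts in excess medium against 1335, 1442, 1399 and 1263 in complete medium, a ratio of means of 2.21 (log2 fold change 1.14, SE 0.051, limma adjusted p = 9.44e-12). *P4HB*, with 31865, 32341, 33016 and 33752 counts against 22199, 21833, 22134 and 22332, was higher in every excess library, by 0.57 on the log2 scale. *PDIA4* rose by 0.46. *PDIA6* fell: its 9145, 9616, 9478 and 9288 counts were under all 4 complete libraries, at a log2 fold change of -0.42 (SE 0.034, limma adjusted p = 1.58e-08). The exons of *PDIA6* share 25.2% of their length with *ATP6V1C2* on the other strand, which had a mean of 3595 normalized counts. *PDIA3* and *ERO1A* had log2 fold changes of 0.08 and 0.15 (limma adjusted p = 0.0621 and 0.0109); *ERO1A* was called with edgeR and DESeq2 on the recovered reads.

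In the degradation group, 6 of 8 rose and 1 fell. The shares over all tested genes were 23.1% higher and 22.9% lower (30.1% and 37.6% at a mean of at least 500). Thus 1 of 8 lower is not above the background share. *HERPUD1* had 6735, 6911, 7469 and 6914 counts in excess medium, 2.49 times the mean in complete medium (log2 fold change 1.32, SE 0.045, limma adjusted p = 3.22e-13). *EDEM1*, which helps extract misfolded glycoproteins from folding, rose by 1.11, *SEL1L* by 0.96, *DERL2* by 0.58, *SYVN1* by 0.34 and *DERL1* by 0.26. *EDEM2* had -0.13 (limma adjusted p = 0.112). *DERL3* had 454, 477, 466 and 374 counts against 580, 484, 713 and 525, a log2 fold change of -0.37 (limma adjusted p = 0.00808), and this call was lost with no filter, with both equal-total scalings, and without any of excess replicates 1 to 4 or complete replicates 1 or 3.

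Of the 5 sensors and factors, 4 rose, with a group median of 1.04. The share called higher over all tested genes was 23.1% (30.1% at a mean of at least 500). *XBP1* had 17956, 18266, 18471 and 19186 counts, all above the 6718 to 7244 of complete medium, a ratio of 2.63 (log2 fold change 1.40, SE 0.036, limma adjusted p = 1.23e-14). *ERN1* rose by 1.26 on the log2 scale, *ATF6* by 1.04 and *CREB3L2* by 0.56. *ATF6B* had -0.15 (limma adjusted p = 0.0181) and was not called. *SEC24D* rose from 2177, 1936, 2020 and 1950 to 4671, 5058, 5434 and 4990 counts (log2 fold change 1.32, SE 0.053, limma adjusted p = 2.53e-12), *SEC61B* rose by 0.23, and *WFS1* had -0.16 (limma adjusted p = 0.0168).

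Grouped by the factor they are best known to depend on, the 5 members known mainly as targets of spliced XBP1 (*DNAJB9*, *DNAJC3*, *EDEM1*, *SEC61B* and *SEC24D*) counted 5 higher and 0 lower in excess medium with limma, edgeR and DESeq2, and their median log2 fold change was 1.11. The 8 known mainly as ATF6 targets (*HSPA5*, *HSP90B1*, *HYOU1*, *CRELD2*, *MANF*, *SDF2L1*, *PDIA4* and *HERPUD1*) counted 5 higher and 3 lower, with a median of 0.36. Without cysteine the counts were 0 higher (1, *EDEM1*, at an unadjusted p under 0.05, and 0 with edgeR and DESeq2) and 2 lower for the former, and 1 higher and 6 lower for the latter, with medians of -0.28 and -0.30. These groups were drawn from general knowledge with earlier results of these data known, may not be complete, and overlap the role groups. Over all tested genes, 23.1% were called higher and 22.9% lower in excess medium (30.1% and 37.6% at a mean of at least 500). Without cysteine these shares were 7.39% and 8.51% (11.5% and 17.1%). The 3 of 8 ATF6 targets called lower in excess medium are near the share of 37.6%. Among the 11 members with an ERSE or ERSE-II in the promoters described above, 6 rose in excess medium (*HSPA5*, *CANX*, *XBP1*, *HERPUD1*, *HYOU1* and *ERO1B*) and 5 fell (*SDF2L1*, *HSP90B1*, *CALR*, *CRELD2* and *PDIA6*). The 5 of 11 called lower are near the share of 37.6%. Of the 18 members with a promoter entry and neither element, 14 rose and 4 were not called. Of the 4 without an entry, 2 rose, 1 fell and 1 was not called. A relation between element and fold change was not tested. The promoter of *DNAJB9*, the gene with the largest increase among the members, held neither element in the window.

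**Figure D3:**
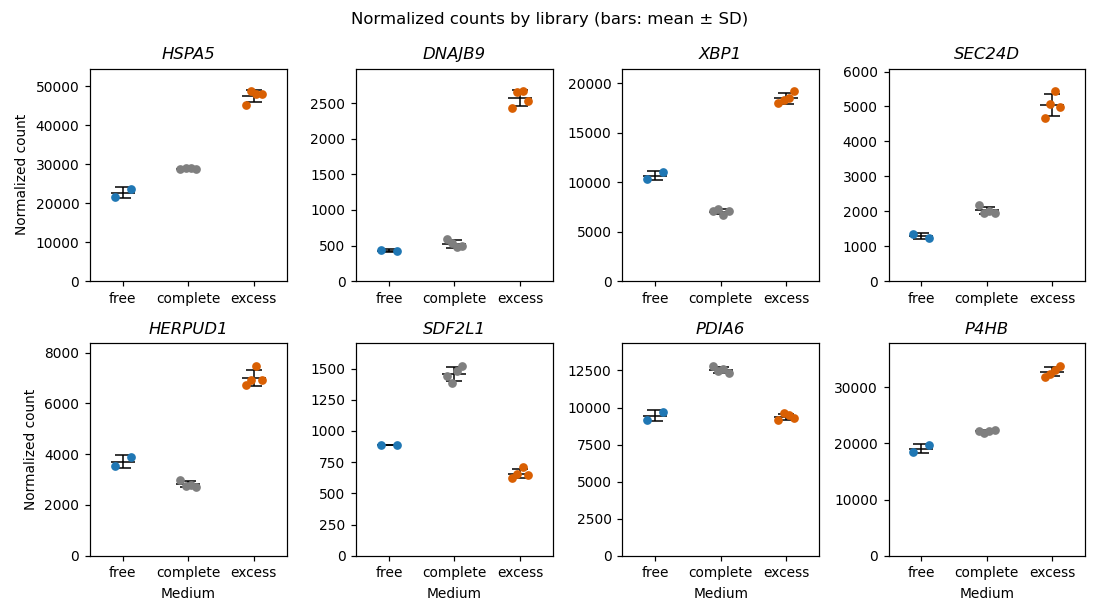
Normalized counts of 8 members in each library, with the mean and SD of the group as bars, on axes that start at 0. *HSPA5*, *SEC24D* and *P4HB* lie lower in cysteine-free and higher in excess than in complete medium, *XBP1* and *HERPUD1* lie higher in both, *SDF2L1* and *PDIA6* lie lower in both, and *DNAJB9* reaches 2439 to 2670 in excess medium.

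Because both comparisons used the same complete libraries, the media were also compared directly. In cysteine-free against excess medium, 5 members were higher and 23 lower (limma, same threshold), against 23.6% and 24.4% of all tested genes, and the median log2 difference was -0.58. Among the lower ones were *DNAJB9* at -2.59 (limma adjusted p = 1.23e-21), *SEC24D* at -1.96, *ERO1B* at -1.10 and *HSPA5* at -1.07. All 5 members known mainly as targets of spliced XBP1 were among the 23. The 5 higher ones were *DERL3* at 1.13, *ATF6B* at 0.59, *SDF2L1* at 0.43, *CALR* at 0.34 and *CRELD2* at 0.20, the last of which lost its call with no filter, with equal totals and without cysteine-free replicate 1. *PDIA6* (0.01, SE 0.038), *HSP90B1* (-0.0037, SE 0.034), *ERO1A* (0.01, SE 0.044), *EDEM2* (0.00046, SE 0.072) and *WFS1* (0.07, SE 0.058) were not called, and their libraries overlapped between the 2 media. *XBP1*, *ERN1*, *ATF6* and *HERPUD1*, which lay above complete medium in both media, were lower without cysteine than in excess, by -0.79, -0.78, -0.58 and -0.92.

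The genes of the PERK and ATF4 branch, set beside the members, mostly rose without cysteine and all rose with excess. Of 32 genes, 29 rose without cysteine (median log2 fold change 0.97) and 32 in excess medium (median 1.25). Over all tested genes, 7.39% and 23.1% were called higher, and 8.51% and 22.9% lower. In the direct comparison of cysteine-free with excess medium, 8 of the 32 were called higher and 18 lower, against 23.6% and 24.4% of all tested genes. In limma 0 fell in either medium, also at an unadjusted p under 0.05 and with edgeR or DESeq2 on the recovered reads. *CHAC1*, a glutathione-degrading enzyme and ATF4 target, had 1853 and 1865 normalized counts without cysteine, 522, 477, 359 and 523 in complete medium, and 1842, 1780, 1959 and 2069 in excess medium. Its log2 fold changes were 2.00 and 2.03 (limma adjusted p = 3.91e-07 and 2.50e-11), and the direct comparison gave -0.04 (0.585). *ASNS*, which makes asparagine, had log2 fold changes of 1.36 and 1.58. Of its exon length, 49.3% is shared with a long non-coding RNA on its strand, which had a mean of 15750 normalized counts against 15860 for *ASNS*.

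Other genes of this branch were further apart between the media. *DDIT3*, which encodes the stress factor CHOP, had 1158 and 1231 counts without cysteine, 637, 607, 576 and 627 in complete medium and 2611, 2840, 2879 and 2881 in excess medium. The log2 fold changes were 0.97 and 2.19, and the direct difference was -1.23 (SE 0.053, limma adjusted p = 8.38e-16). Of the exon length of *DDIT3*, 27.2% is shared with *MARS1* on the other strand. *MARS1* had a mean of 14050 normalized counts, against 1605 for *DDIT3*. *TRIB3*, a pseudokinase induced by CHOP and ATF4, had 1.08 and 3.32. *NUPR1* and *DDIT4*, both stress-induced regulators, had the largest increases of the list without cysteine at 3.46 and 2.02, and *GDF15*, a secreted stress cytokine, had the largest in excess medium at 5.30, followed by *NUPR1* at 3.49. Without cysteine *GDF15* was not called (log2 fold change -0.02, limma adjusted p = 0.977). *ATF4* mRNA itself had 0.24 (limma adjusted p = 5.30e-03) and 0.47 (2.28e-08).

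*EIF2AK3*, the gene of the ER sensor PERK, had 1055 and 948 counts without cysteine, overlapping the 1008, 1078, 1059 and 1029 of complete medium, and 2020, 2206, 2191 and 2227 in excess medium. The log2 fold change was -0.06 (SE 0.078, limma adjusted p = 0.598) without cysteine and 1.05 (SE 0.051, limma adjusted p = 3.24e-11) with excess cysteine. Side by side, cysteine-free medium had 29 of 32 genes of the ATF4 branch higher. Of the members in the same comparison, 0 of 11 chaperones, 0 of 6 disulfide enzymes, 2 of 8 degradation genes, 4 of 5 sensors and factors and 0 of 3 genes of translocation, export and the ER membrane were higher, where 7.39% of all tested genes were (11.5% at a mean of at least 500), so that 0 of 11 is near the background share. In excess medium, 32 of 32 genes of the branch were higher. The chaperones there counted 7 higher and 4 lower, the disulfide enzymes 3 and 1, the degradation genes 6 and 1 and the sensors and factors 4 and 0. Over all tested genes, 23.1% were called higher and 22.9% lower, and at a mean of at least 500 these shares were 30.1% and 37.6%. The 4 of 11 chaperones called lower are near the last of these shares. Which kinase acted on eIF2α was not tested, and protein levels were not measured.

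**Figure D4:**
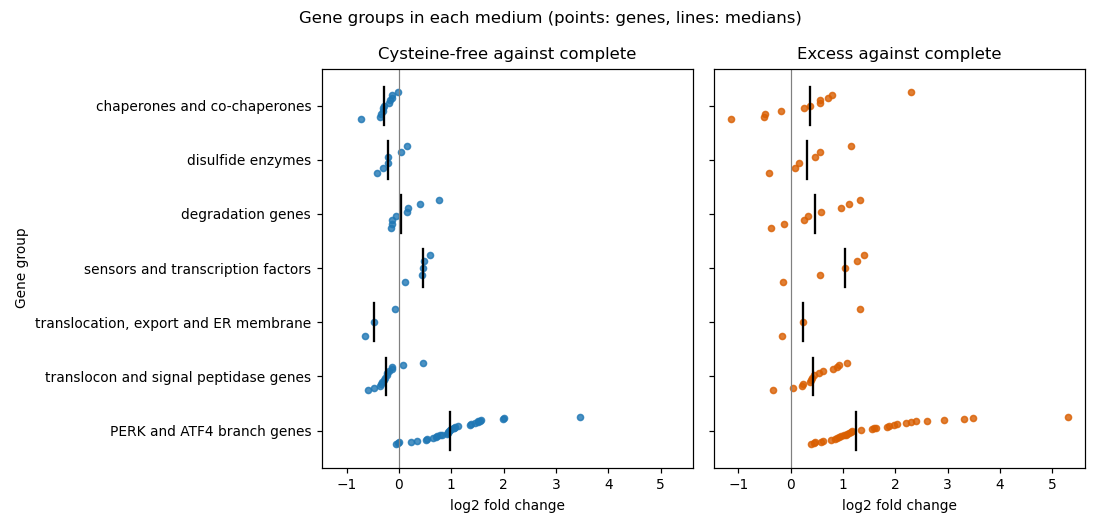
Log2 fold changes against complete medium in cysteine-free (left) and excess medium (right), by gene group, with a point for each gene and a line at the median. The ATF4 branch has a median of 0.97 on the left, where the chaperones have -0.28 and the sensors 0.46; on the right the medians are 1.25, 0.36 and 1.04.

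Further ER genes outside the 33 were counted in 4 lists. Without cysteine, 7.39% of all tested genes were called higher and 8.51% lower (11.5% and 17.1% at a mean of at least 500). With excess, these shares were 23.1% and 22.9% (30.1% and 37.6%). Several counts are near these shares, among them 2 of 20 folding genes higher and 3 of 15 degradation genes lower without cysteine. The numbers called lower with excess in the folding, degradation and export lists are not above 37.6% either. Of 20 other folding and disulfide genes, 2 rose and 6 fell without cysteine, and 12 rose and 5 fell with excess. *FKBP14*, a prolyl isomerase, and *PRDX4*, an ER peroxidase that makes disulfides from hydrogen peroxide, were lowest without cysteine at log2 fold changes of -0.76 and -0.60, while *ERP29* and *HSPA13*, luminal and microsomal chaperone relatives, rose by 0.53 and 0.47. With excess cysteine *HSPA13* and *SERP1* rose by 1.34 and 1.00, and *SIL1*, an exchange factor of BiP, and *TMX2* had -0.66 and -0.51. Of 15 other degradation genes, 3 rose and 3 fell without cysteine (*MAN1B1* 0.25, *VCP* -0.48, *SELENOS* -0.44), and 8 rose and 3 fell with excess (*UBE2J1* 0.87, *MAN1B1* -0.87, *UBE2G2* -0.48).

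The translocon and signal peptidase genes had 1 of 14 higher and 9 lower without cysteine, with a median of -0.25, and 12 higher and 1 lower with excess, with a median of 0.43. *SEC61G*, a translocon subunit, and *SRPRA*, of the signal recognition particle receptor, fell by 0.59 and 0.48 without cysteine, and *SEC63* rose by 0.46. *SEC61A1*, the channel itself, and *TRAM1* rose by 1.08 and 0.92 with excess, and *SPCS1*, of signal peptidase, had -0.34. The exons of *SPCS1* share 52.8% of their length with *NEK4* on the other strand, which had a mean of 2245 normalized counts against 3394 for *SPCS1*. Among 13 export and retrieval genes, 0 rose and 5 fell without cysteine in limma (0 higher also with edgeR, with DESeq2 and at an unadjusted p under 0.05; *SEC24A* -0.62, *SEC24C* -0.36), and 6 rose and 3 fell with excess (*SAR1B* 0.63, *SEC23B* 0.53, *KDELR3* -0.35, *KDELR1* -0.28). The exons of *SEC24C* share 42.8% of their length with an unnamed gene on the other strand.

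The cysteine content of the encoded proteins was counted as codons in the canonical coding sequence, as a property that the choice of genes did not use. The members had a median of 1.35% cysteine codons, against 2.03% over 20020 canonical coding transcripts. The range ran from 0.306% in *HSPA5*, with 2 cysteines in 654 codons, to 10.8% in *CRELD2*, with 38 in 353; *MANF* had 4.40% and *ERO1A* 3.21%. The group medians were 1.49% for the disulfide enzymes, 1.35% for the chaperones and 0.992% for the degradation genes. *HSPA5* and *CRELD2*, at the ends of this range, had log2 fold changes of -0.35 and -0.30 without cysteine, and of 0.71 and -0.51 with excess. A relation between cysteine content and fold change was not tested.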

How the data were processed

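HEK293T cells were harvested after 24 h in cysteine-free, complete or excess medium (2, 4 and 4 libraries), and grouping followed the sample titles. The authors prepared poly(A)-selected libraries with a directional kit, aligned paired reads with STAR 2.7.10b to GRCh38 and counted reads per Ensembl gene. The study's methods name featureCounts, with reads over several genes discarded, while the submitters' processing notes name HTSeq. The deposited values are signal values, that is, the read count of a gene divided by the DESeq2 size factor of the library, and in every library 100% of values were whole multiples of 1 read within 0.01 reads. The Ensembl release and strand setting are not given in the sources used here. Of 78894 IDs, 61463 were in GENCODE release 44 and 42165 had a symbol.

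Genes with a value of at least 10 in at least 3 libraries were kept (29045). Log2(value + 1) was fitted with limma 3.58.1 (lmFit, eBayes with trend, 2-sided) in R 4.3.3, on the groups compared only, with Benjamini-Hochberg adjustment and a threshold of 0.01. Fold changes understate the change of low genes on this scale. The script was tested on simulated data. Alternatives were pseudocounts of 0.5 and 10, no filter, a minimum of 50, 3 other scalings, all groups in one fit, a replicate block, edgeR 4.0.16 and DESeq2 1.42.0 on recovered reads, a threshold of 0.05 and each library left out. The recovered reads, summed over genes, were 34836014 to 61654861 per library. These sums exceed the average number of reads per sample that the study's methods state, and the cause was not tested. With counts of this size, the number of libraries limits precision.

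The members and the gene lists were chosen with earlier results of these data known. Named genes are the 33 members, *ATF4*, *DDIT3*, *TRIB3*, *CHAC1*, *ASNS*, *EIF2AK3* and, from each other list and comparison with complete medium, the called genes with the 2 largest increases and 2 largest decreases at a mean of at least 100; genes that share exons with these are named for that overlap. A gene that the rule also names is not reported here. Lengths and codons come from the Ensembl canonical transcript, promoters from RefSeq.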

Additional observations from a re-analysis of the deposited data

Results flagged for a closer look

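In 5 of the 78 groups of 4 libraries examined (complete and excess medium for the 33 members and 6 genes of the ATF4 branch), a library stood apart from the other three by a gap beyond Dixon's 95% critical value. Chance alone flags about 5% of such groups, which is 3.9 of 78. *DDIT3* had 2611 normalized counts in excess replicate 1 against 2840 to 2881 in the others. *PDIA3* was also lowest in excess replicate 1, at 12798 against 13363 to 13470. *ERO1B* was highest in excess replicate 3, at 3127 against 2950 to 2977. *WFS1* was highest in excess replicate 4, at 1399 against 1286 to 1293, and *DERL2* was highest in complete replicate 1, at 1543 against 1466 to 1475. The cysteine-free group, with 2 libraries, could not be examined this way.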

How the results depend on the processing

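In excess against complete medium, the members called higher numbered 22 to 24 and those called lower 4 to 8 under every alternative run, and 26 of the 28 calls were made in each of them; in the direct comparison of cysteine-free with excess medium this held for 27 of 28. Cysteine-free against complete medium was less stable. With no filter, which tested 57308 genes, 1 member was called higher in place of 6 and 3 lower in place of 12. Leaving out a library gave 1 to 6 higher and 4 to 12 lower, where the lone cysteine-free library left is assumed to vary like the others. The other settings gave 6 higher and 10 to 13 lower. The number of genes called over the whole table was 4618, with a range of 978 to 6300 when a library was left out.

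Same-numbered libraries did not deviate together (correlations from -0.116 to 0.103), so the numbers were not read as pairs. With the replicate block, cysteine-free against complete medium gave 6 members higher and 11 lower, without *HSP90B1* and *P4HB* and with *DNAJB9*; excess against complete gave 22 and 6, and the direct comparison 5 and 23.

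Values near 0 changed sign, all of them not called in the reported fit except *HSP90B1* in excess medium (-0.18). *CANX* in cysteine-free against complete medium was 0.00496 with equal totals, 0.016 with equal totals over nuclear genes and 0.0101 with quantile normalization, and ranged from -0.0490 to 0.0108 with a library left out; *EIF2AK3* ranged from -0.139 to 0.0155. *HSP90B1* in excess medium was 0.0167 with quantile normalization. In the direct comparison, equal totals gave -0.0807 for *EDEM2*, -0.0732 for *ERO1A*, -0.0722 for *PDIA6* and -0.00876 for *WFS1*, and quantile normalization gave -0.0508 for *EDEM2* and -0.0176 for *PDIA6*. *EDEM2* was -0.00212 with equal totals over nuclear genes, -0.000816 with the replicate block, -0.000345 with edgeR and -0.00245 with DESeq2. With a library left out, the direct difference ranged from -0.0168 to 0.0169 for *EDEM2*, from -0.00875 to 0.0316 for *ERO1A*, from -0.0389 to 0.0316 for *HSP90B1* and from -0.0318 to 0.0499 for *PDIA6*. The cause of these changes was not tested.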
